A study of Mus musculus with 9 samples.

Results

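The genes described here were listed as genes of the mesenchyme that surrounds the fetal thymus, part of which later forms its capsule. They are the platelet-derived growth factor receptors Pdgfra and Pdgfrb and the transcription factors Twist1, Twist2, Prrx1, Foxd1, Osr1, Tcf21, Alx1 and Meox1. They were chosen by name, and each was read from the transcript cluster annotated to its symbol, of which there was 1 for each gene found. Of the 10 genes, 9 were measured, out of 19505 genes with a symbol, and Pdgfra was not analysed here. RNA came from thymic lobes dissected from C57BL/6 embryos at e13.5, in the middle of gestation, and was hybridised to Clariom S mouse arrays, 9 in all. Each of 3 genotypes had 3 arrays: wild type, Foxn1933/1089, called Foxn1 mutants here, and Tbx1neo2/neo2, called Tbx1 mutants here. The Foxn1 mutants carried a different mutant allele of the thymic epithelial transcription factor gene Foxn1 on each chromosome. The Tbx1 mutants were homozygous for neo2, an allele known to lower expression of Tbx1, a T-box gene that patterns the pharyngeal pouches. Both are germline changes of whole animals, the labels name no agent given to any embryo, and they do not say whether the lobes of an array came from 1 embryo or several. The p-values therefore measure only the spread between these samples, which may be technical.

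Mesenchyme derived largely from the neural crest envelops the thymic rudiment while it detaches from the pharynx. It is known to supply growth factors to the epithelium, and part of it persists as capsule, septa and the pericytes of thymic vessels. PDGF receptors are tyrosine kinases of mesenchymal cells that respond to ligands made largely by neighbouring cells. TWIST1, TWIST2 and TCF21 are basic helix-loop-helix factors, which act with E-protein partners, PRRX1, ALX1 and MEOX1 are homeodomain factors, FOXD1 is a forkhead factor and OSR1 a zinc-finger factor. Several of these genes, among them Tcf21, Osr1 and Meox1, are also known from mesoderm, so their RNA in a whole lobe does not give the origin of the cells. In such a bulk sample, fewer mesenchymal cells and less RNA per cell cannot be told apart.

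The thymic label held on 7 of the arrays. On the log2 scale of the deposited values, the cortical epithelial protease gene Prss16 read 13.87 to 14.43 there. It read 4.24 on replicate 1 of wild type and 4.45 on replicate 2 of the Foxn1 mutants, called below the 2 arrays without thymic genes, although Foxn1 itself was above background on them. The 7 thymic epithelial markers averaged 7.59 and 7.78 on these arrays and 11.19 to 11.64 on the others. That fall rests mainly on Prss16, Psmb11, Krt8 and Krt18. Of the 7, only Prss16 and Psmb11 were under background there, and the name refers to them. Krt8 (12.12 and 12.37) and Krt18 (11.48 and 11.06) stayed above background, against 15.62 to 15.97 and 15.25 to 15.92 elsewhere. Epcam read 8.33 and 8.82 on the 2 arrays and 7.97 to 8.83 elsewhere, and Ccl25 read 5.78 and 5.67 against 5.88 to 6.89. Wild type replicate 1 also had a mean of 12.59 for 6 neuronal markers, against 5.93 to 6.33 elsewhere. Over 7 heart muscle markers, the mean peaked on Foxn1 mutant replicate 2, at 7.94 against 4.71 to 6.77. Only Myl7 (10.71), Nppa (7.55) and Myh6 (5.96) peaked there. Tnnt2 (9.25), Actn2 (11.59) and Myl4 (12.49) peaked on wild type replicate 2, and Nkx2-5 was under background throughout. Of these 7 markers, 2 read above background on all 9 arrays. The member differences, and those of the related genes where stated, are therefore given both with all 9 arrays and with 7. The 7 leave out the 2 arrays without thymic genes. Array medians lay between 5.09 and 5.20, and the median of the negative-control probes, used here as the background level of an array, between 4.27 and 4.94. Precision is limited by how few arrays there are. Of the targeted genes, Foxn1 read 7.78 to 10.35 in wild type and 8.73 to 9.67 in its own mutants. Tbx1 read 5.85, 4.25 and 4.54 across wild type and 5.38, 4.80 and 5.30 on the arrays labelled Tbx1 mutant, so it was not lower there (0.28 ± 0.41, SE, n = 3), and it lay within about 1 log2 unit of background on all 9 arrays. Neither gene therefore checks the labels.

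As a reference for the genes themselves, the bases just upstream of the annotated start are shown for Twist1 and Tcf21, the pair whose levels tracked each other most closely over the 7 arrays (the correlation is given with the pairs of genes). The sequences are from RefSeq on GRCm38.p6, written 5′ to 3′ on the strand of the gene, and capitals mark CG dinucleotides. The Twist1 window is chr12:33957421-33957670 on the plus strand and the Tcf21 window chr10:22820144-22820393 on the minus strand.
Twist1: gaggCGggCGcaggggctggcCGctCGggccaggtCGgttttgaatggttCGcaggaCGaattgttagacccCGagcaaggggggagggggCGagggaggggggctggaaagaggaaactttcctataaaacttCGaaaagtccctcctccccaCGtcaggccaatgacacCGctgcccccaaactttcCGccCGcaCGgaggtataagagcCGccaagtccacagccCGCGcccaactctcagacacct
Tcf21: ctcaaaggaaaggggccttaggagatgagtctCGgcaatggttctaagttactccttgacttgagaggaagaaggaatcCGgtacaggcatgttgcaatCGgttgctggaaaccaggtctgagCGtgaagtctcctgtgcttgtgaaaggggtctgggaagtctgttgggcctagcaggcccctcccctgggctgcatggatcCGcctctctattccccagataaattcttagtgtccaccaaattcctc
The Twist1 window of 250 bases holds 18 CG dinucleotides and the Tcf21 window 5, where the median of 32841 RefSeq windows of this length is 6. The E-box CANNTG, the motif that basic helix-loop-helix factors bind, reads the same on both strands and was found in neither window, while 66.2% of all windows hold it. Of the 5 measured members with a window, only Foxd1 held an E-box, a single one.

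No difference of the 9 genes between genotypes passed the test. With limma, adjusted over all 22206 transcript clusters by Benjamini and Hochberg, 0 of 9 passed an adjusted p of 0.05 in any of the 3 comparisons, and every adjusted p was 1.00. The share of all clusters called was 0% between Foxn1 mutants and wild type, 0.0135% between Tbx1 mutants and wild type and 0% between the mutants. At an unadjusted p under 0.05 the members numbered 0 (4.04% of all clusters), 1 (3.79%) and 0 (2.98%), and the single one was Alx1 in the Tbx1 mutants. The moderated F test for any difference among genotypes also called 0 of 9 (0.00901% of all clusters), and at an unadjusted p under 0.05 it held 1 of 9 (3.22%), Alx1. On average the 9 genes read higher in the Foxn1 mutants than in wild type in 9 of 9 cases, with a median log2 difference of 0.37, while 52.4% of all clusters read higher and their median was 0.02. In the Tbx1 mutants 7 of 9 read higher than in wild type (52.2% of all clusters), and 6 of 9 read higher in Foxn1 than in Tbx1 mutants (51.3%). Arrays that did not overlap were found for 2 members higher (4.86%) and 0 lower (3.43%) in Foxn1 mutants against wild type, 1 higher (5.18%) and 0 lower (4.27%) in Tbx1 mutants against wild type, and 0 higher (5%) and 1 lower (3.91%) in Foxn1 against Tbx1 mutants. In the 7 arrays 7 of 9 members read higher in Foxn1 mutants than in wild type, with a median of 0.11 (50.7% of all clusters, median 0.005), and 8 of 9 in Tbx1 mutants than in wild type, with a median of 0.20 (48.5%, median -0.01). Between the mutants the direction turned, with 2 of 9 higher in the Foxn1 mutants and a median of -0.14 (51.3%, median 0.01), where 9 arrays gave a median of 0.27.

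**Figure D1:**
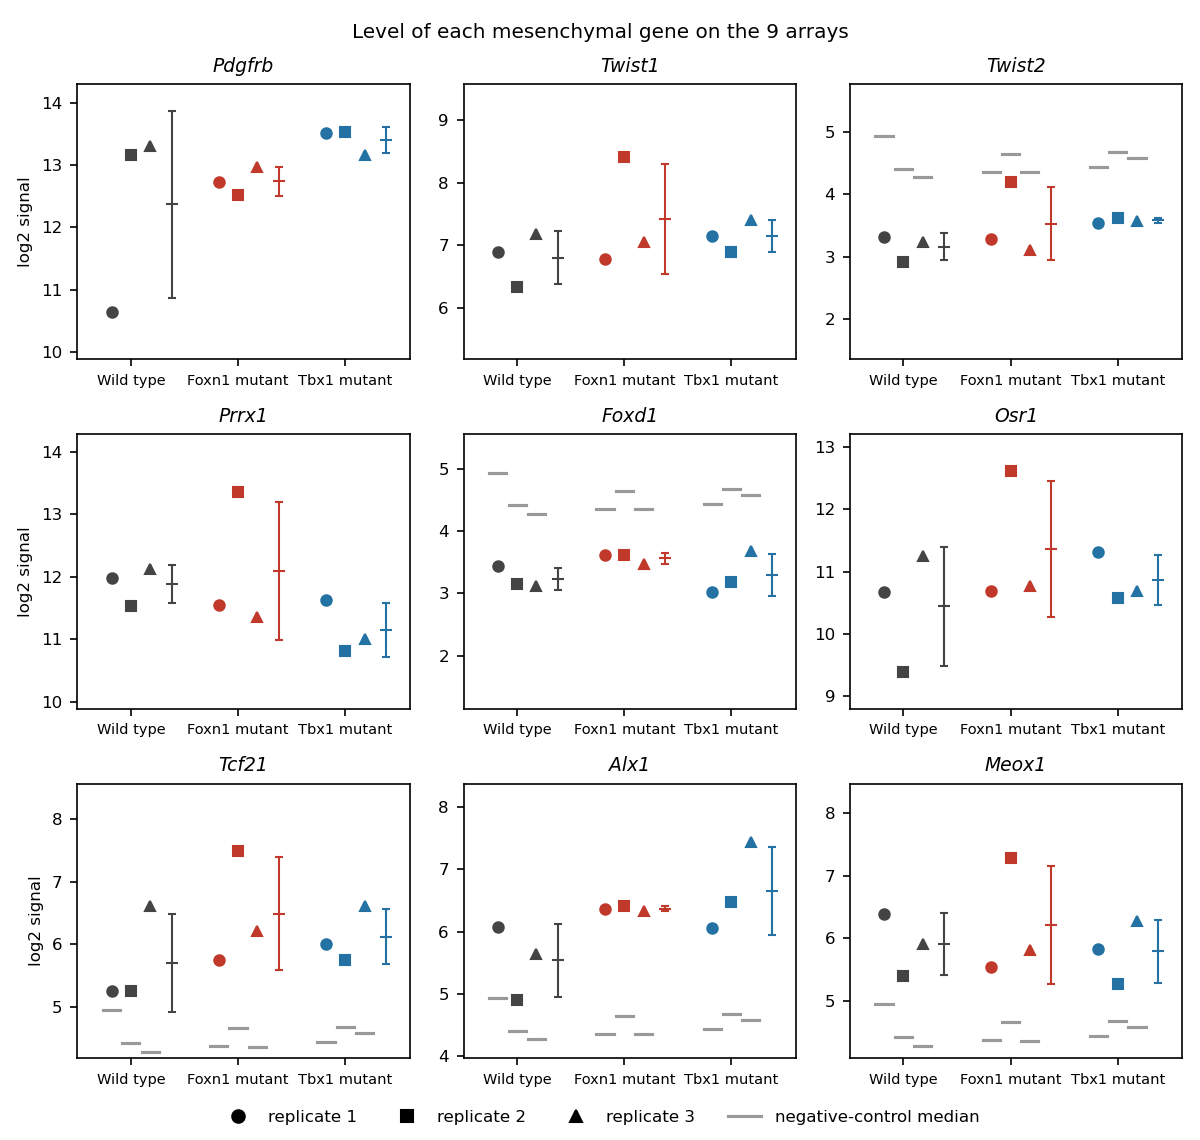
Log2 signal (y axis, the same span in every panel) of the 9 measured genes on each array, grouped by genotype on the x axis, with a symbol for each replicate, the mean and SD over 3 arrays to the right of each group, and the negative-control median of each array as a grey bar where it falls within the panel. Foxn1 mutant replicate 2 is the highest array for 6 genes, and Twist2 and Foxd1 lie under the grey bars on all 9 arrays.

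Pdgfrb, the receptor that also marks pericytes, read 10.64, 13.15 and 13.31 across wild type, 12.72, 12.52 and 12.97 across Foxn1 mutants and 13.505, 13.53 and 13.15 across Tbx1 mutants. The low wild type array is replicate 1, and the other 8 arrays lie between 12.52 and 13.53. The difference was 0.37 ± 0.60 (SE, n = 3 per genotype) for Foxn1 mutants against wild type, 1.03 ± 0.60 for Tbx1 mutants against wild type and -0.66 ± 0.60 for Foxn1 against Tbx1 mutants. In the last comparison the arrays did not overlap, and every Foxn1 mutant array lay under every Tbx1 mutant array (3.91% of all clusters show that). Leaving out the 2 arrays without thymic genes gave differences of -0.38 ± 0.24, 0.17 ± 0.22 and -0.55 ± 0.22, so the sign against wild type turned in the Foxn1 mutants. The interval for Foxn1 against Tbx1 mutants in the 7 arrays ran from -1.05 to -0.05, with an adjusted p of 0.541 from limma. The array with the lowest Pdgfrb was also the lowest for Abcc9, a potassium channel subunit of pericytes, at 7.97 against 9.64 to 10.36 elsewhere, while the pericyte marker Rgs5 was not low there (7.08, with 5.49 to 9.52 elsewhere). The 6 pericyte and smooth muscle markers averaged 6.96 to 7.69 across wild type, 6.37 to 8.39 across Foxn1 mutants and 7.33 to 9.46 across Tbx1 mutants, 5 of the 6 read above background on all 9 arrays (Myh11 on none), and their part in the Pdgfrb values was not tested.

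Twist1, a regulator of cranial mesenchyme that restrains differentiation, read 6.90, 6.33 and 7.18 across wild type, 6.77, 8.42 and 7.05 across Foxn1 mutants and 7.15, 6.89 and 7.40 across Tbx1 mutants. A single array, Foxn1 mutant replicate 2, stood above all others, and the remaining arrays of the 3 genotypes overlapped. The difference from wild type was 0.61 ± 0.41 in the Foxn1 mutants and 0.35 ± 0.41 in the Tbx1 mutants (SE, n = 3), and in the 7 arrays 0.16 ± 0.32 and 0.40 ± 0.29. Twist2, its close relative, known from dermis, read 2.92 to 3.32 across wild type, 3.11 to 4.20 across Foxn1 mutants and 3.55 to 3.63 across Tbx1 mutants. All 9 values were under the negative-control median of their array, so the differences of Twist2 (0.37 ± 0.29 and 0.42 ± 0.29 against wild type) are between background values, although the Tbx1 mutant arrays all lay above the wild type arrays (5.18% of all clusters do so). No fold is given for it.

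Tcf21, a factor of fibroblast and epicardial lineages also called capsulin, read 5.25, 5.25 and 6.61 across wild type, 5.75, 7.50 and 6.21 across Foxn1 mutants and 6.01, 5.75 and 6.61 across Tbx1 mutants. On wild type replicate 1 the negative-control median was 4.94, not far under the Tcf21 value. The Foxn1 mutants differed from wild type by 0.78 ± 0.51 with 9 arrays and by 0.05 ± 0.46 with 7, and the Tbx1 mutants by 0.42 ± 0.51 and 0.20 ± 0.42. The highest array was again Foxn1 mutant replicate 2, and all groups overlapped.

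Osr1, a zinc-finger factor of lateral and intermediate mesoderm and of connective tissue fibroblasts, read 10.68, 9.39 and 11.26 across wild type, 10.68, 12.62 and 10.77 across Foxn1 mutants and 11.31, 10.57 and 10.69 across Tbx1 mutants. The range of 3.23 log2 units was the widest of the 9 genes. Wild type replicate 2 gave the lowest value and Foxn1 mutant replicate 2 the highest, and the other 7 arrays lay between 10.57 and 11.31. The difference from wild type was 0.92 ± 0.59 in the Foxn1 mutants, with a 95% interval from -0.41 to 2.24, and 0.42 ± 0.59 in the Tbx1 mutants. Leaving out the 2 arrays without thymic genes gave 0.40 ± 0.53 and 0.54 ± 0.49. Wild type replicate 2 was also the array with the highest skeletal muscle markers, with a mean of 8.40 over 7 genes against 4.67 to 6.22 elsewhere (5 of the 7 above background on all 9 arrays), and their part in the low Osr1 value was not tested.

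Prrx1, a homeobox gene of limb and craniofacial mesenchyme, had the largest difference between the mutants among the members with 9 arrays. It read 11.98, 11.54 and 12.12 across wild type, 11.55, 13.37 and 11.35 across Foxn1 mutants and 11.63, 10.81 and 11.00 across Tbx1 mutants. The Tbx1 mutants thus held the lowest values, and their highest array overlapped wild type replicate 2 by less than 0.1 log2 units. The difference was 0.94 ± 0.49 between Foxn1 and Tbx1 mutants, 0.21 ± 0.49 between Foxn1 mutants and wild type and -0.73 ± 0.49 between Tbx1 mutants and wild type. In the 7 arrays the values were 0.31 ± 0.30, -0.38 ± 0.33 and -0.68 ± 0.30, the last with a 95% interval from -1.36 to -0.002 and an adjusted p of 0.617 from limma. For Tbx1 mutants against wild type, Prrx1 was negative under each of the 18 alternative fits, between -0.97 and -0.56 with any 1 array left out, and at -0.49 and -1.08 within the date codes A and C of the sample titles. Each date-code value rests on 1 wild type array, and in C that is replicate 1, an array without thymic genes.

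Alx1, a homeobox gene of craniofacial neural crest mesenchyme, had the lowest p among the members. It read 6.07, 4.91 and 5.63 across wild type, 6.36, 6.41 and 6.32 across Foxn1 mutants and 6.06, 6.47 and 7.43 across Tbx1 mutants. All Foxn1 mutant arrays lay above all wild type arrays (4.86% of all clusters do so), and of the Tbx1 mutant arrays replicates 2 and 3 did, while replicate 1 equalled wild type replicate 1 to within 0.01 log2 units. The mean was 1.78-fold higher in the Foxn1 mutants (0.83 ± 0.38, SE, n = 3, 95% interval -0.03 to 1.68, unadjusted p = 0.0559 from limma) and 2.17-fold higher in the Tbx1 mutants (1.12 ± 0.38, 0.26 to 1.97, unadjusted p = 0.0159 from limma). With adjustment over all clusters both values of p were 1.00. The 7 arrays gave 1.07 ± 0.43 (adjusted p = 0.870 from limma) and 1.38 ± 0.40 (adjusted p = 0.428 from limma), so this gene did not depend on the 2 arrays without thymic genes for its direction. In these 7 arrays wild type was replicates 2 and 3 alone, and replicate 2 held the lowest Alx1 value of all. With any 1 array left out the difference lay between 0.52 (without wild type replicate 2) and 1.09 in the Foxn1 mutants and between 0.73 (without Tbx1 mutant replicate 3) and 1.41 in the Tbx1 mutants. Within date codes it was 0.78 (A) and 1.43 (B) for the Foxn1 mutants and 0.43 (A) and 0.88 (C) for the Tbx1 mutants, each resting on 1 wild type array. The A value of the Foxn1 mutants is from replicate 2, and the C value of the Tbx1 mutants is against wild type replicate 1. Both are arrays without thymic genes, and the B value is against wild type replicate 2, the lowest for Alx1. Between the mutants Alx1 differed by -0.29 ± 0.38.

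The markers of mesothelium, the sheet that lines the body cavities next to the thymus, also read lowest in wild type on average. Their mean over 5 genes was 4.73 to 6.21 across wild type, 6.65 to 7.73 across Foxn1 mutants and 6.62 to 8.09 across Tbx1 mutants, and 3 of the 5 read above background on all 9 arrays (Wt1 on 8 and Msln on 5). Msln alone was not lowest in wild type, with a mean of 4.48 there and 4.45 in the Tbx1 mutants. Upk3b, a uroplakin of mesothelial cells, read 8.63, 5.62 and 9.63 across wild type, 11.50, 12.78 and 10.94 across Foxn1 mutants and 11.48, 10.77 and 13.10 across Tbx1 mutants (limma adjusted p = 1.00 and 0.974, or 0.870 and 0.377 in the 7 arrays). Both Alx1 and the mesothelial mean were lowest on wild type replicate 2 and highest on Tbx1 mutant replicate 3. The part of mesothelial cells in the Alx1 values was not tested. Other marker lists also shifted in both mutants. Erythroid markers read lower than wild type for 5 of 5 genes in the Foxn1 mutants and 4 of 5 in the Tbx1 mutants (medians -2.03 and -1.77). Skeletal muscle markers read lower for 7 of 7 in each (medians -0.80 and -0.72), and all neuronal and parathyroid markers did too. Of these lists only parathyroid had calls, 2 of 3 lower in the Tbx1 mutants (0.0135% of all clusters).

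Meox1, a homeobox gene of somites and fibroblasts, read 6.39, 5.40 and 5.91 across wild type, 5.53, 7.28 and 5.80 across Foxn1 mutants and 5.82, 5.27 and 6.28 across Tbx1 mutants. Apart from Foxn1 mutant replicate 2 the genotypes overlapped throughout, with differences from wild type of 0.31 ± 0.47 and -0.11 ± 0.47 (SE, n = 3), or 0.01 ± 0.35 and 0.13 ± 0.32 in the 7 arrays. Foxd1, which marks stromal progenitors in the kidney, read 3.03 to 3.68 over all arrays. Like Twist2 it was under the negative-control median on each of the 9, so the full separation of its Foxn1 mutant values (3.47 to 3.62) from wild type (3.12 to 3.44) is between background values.

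**Figure D2:**
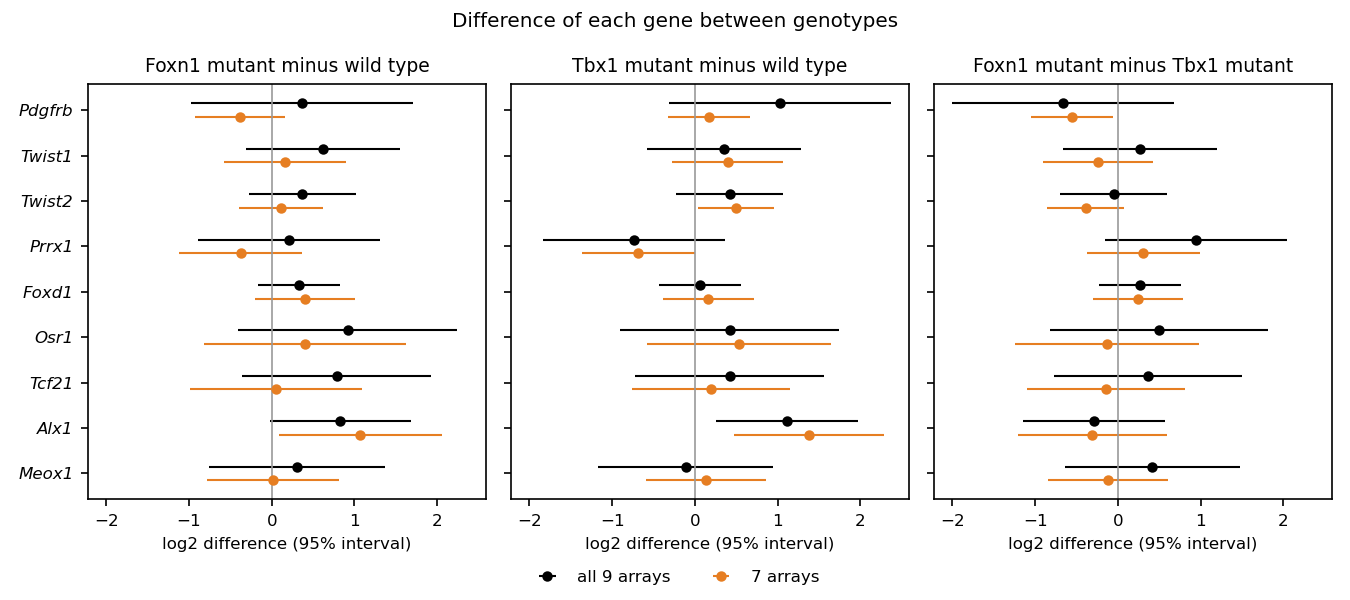
Log2 difference of each gene (x axis, with its 95% interval from limma) in the 3 comparisons, for all 9 arrays in black and for the 7 arrays with thymic genes in orange. Alx1 is the gene farthest above 0 against wild type in the 7 arrays, at 1.07 and 1.38, and the positive values of Tcf21, Twist1 and Osr1 in the Foxn1 mutants are smaller in the 7 arrays than in the 9.

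Across the arrays, the members did not move as one group. Of the 9 genes, 6 (Twist1, Twist2, Prrx1, Osr1, Tcf21 and Meox1) were highest on Foxn1 mutant replicate 2. The mean difference of the 9 genes from their own averages was 0.93 there and between -0.62 and 0.25 on the other 8 arrays. As a description over 9 arrays, which share genotypes and the array standing apart, Pearson's r between Twist1 and Tcf21 was 0.92 (Spearman's rho 0.92), between Twist1 and Osr1 0.93 (rho 0.83) and between Twist1 and Meox1 0.87 (rho 0.78). Over the 7 arrays these were 0.928, 0.817 and 0.815 (r), so these pairs with Twist1 kept an r above 0.8 without the 2 arrays. Among the other pairs of these genes, Tcf21 with Meox1 went from 0.697 to 0.862, Osr1 with Tcf21 from 0.832 to 0.733 and Osr1 with Meox1 from 0.766 to 0.50. Wild type replicate 2, kept among the 7 arrays, was the lowest array for Twist1 (6.33), Osr1 (9.39) and Tcf21 (5.25). How far r over the 7 arrays rests on that array was not tested. Twist1 followed the mean of the other 8 genes most closely, with r of 0.98 over 9 arrays and 0.98 over 7. Prrx1 did not keep its likeness, with r of 0.48 over 9 arrays and -0.19 over 7, and Pdgfrb had none in either (-0.14 and 0.02). The median r over the 36 pairs was 0.49 with 9 arrays and 0.27 with 7.

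**Figure D3:**
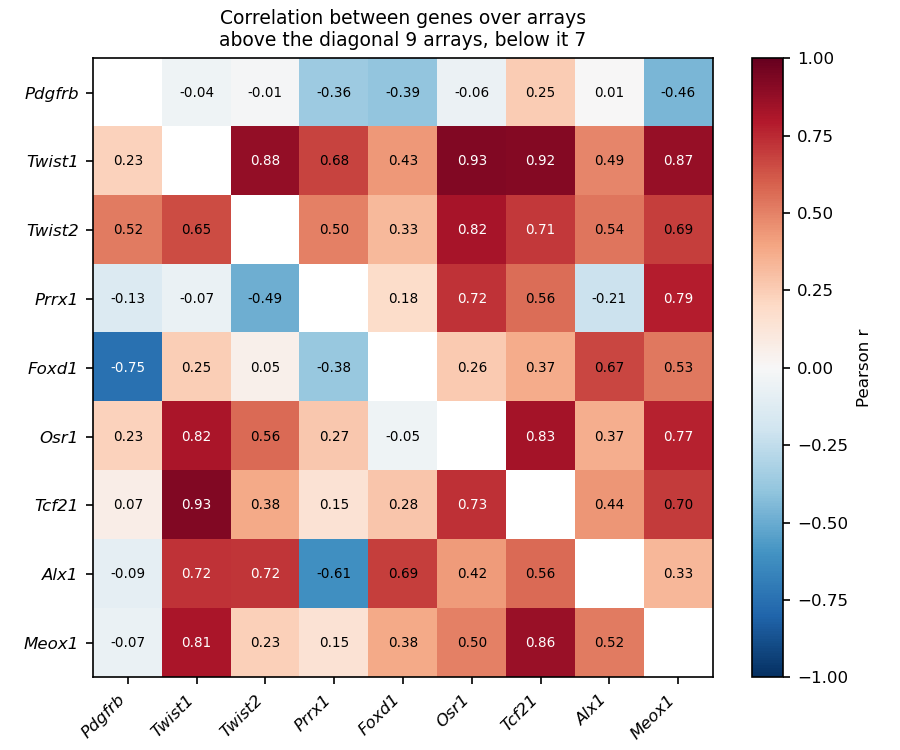
Pearson's r between each pair of the 9 genes over 9 arrays (above the diagonal) and over 7 arrays (below it), on a colour scale from -1 (blue) to 1 (red). Twist1, Osr1, Tcf21 and Meox1 are red on both sides, whereas the positive values of Prrx1 with these genes above the diagonal fall to between -0.07 and 0.27 below it.

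Among 10097 other clusters with a symbol and a mean over the median, those most like the mean of the members over the 9 arrays were Aff2 (r = 0.97), Peg3 (0.97), Stab1 (0.96), Lama4 (0.96) and Pdk2 (0.96). Over the 7 arrays r was 0.92, 0.90, 0.95, 0.92 and 0.95. These genes were picked for their r over the 9 arrays, which include the 7, so the second set of values is no separate test. Lama4 encodes a laminin chain of vascular and mesenchymal basement membranes and Peg3 an imprinted zinc-finger protein. Peg3 read 11.37 to 12.14 across wild type, 12.03 to 13.69 across Foxn1 mutants and 12.20 to 12.71 across Tbx1 mutants, highest on the same Foxn1 mutant replicate 2.

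Of the ligands of the PDGF receptors, 4 of 4 were measured and 0 were called in any comparison. Pdgfa lay between 8.83 and 9.83 on all arrays. Pdgfc read 11.93, 11.13 and 11.23 across wild type, 11.62, 12.93 and 11.04 across Foxn1 mutants and 9.95, 11.08 and 10.72 across Tbx1 mutants, with each of the Tbx1 mutant arrays lower than any from wild type (4.27% of all clusters do so), at -0.85 ± 0.48. Pdgfd, a ligand of PDGFRB, read 4.65, 5.58 and 5.90 across wild type, 6.07, 7.20 and 5.97 across Foxn1 mutants and 7.07, 6.16 and 6.00 across Tbx1 mutants. Both mutants stood above wild type in all arrays (4.86% and 5.18% of all clusters do so), by 1.03 ± 0.45 each, with wild type replicate 1 under its background level. In the 7 arrays Pdgfd differed from wild type by 0.28 ± 0.36 in the Foxn1 mutants and 0.67 ± 0.32 in the Tbx1 mutants, and Pdgfc by -0.60 ± 0.34 in the Tbx1 mutants. Pdgfb was above background on 1 of the 9 arrays, wild type replicate 3, at 4.43.

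Relatives of the members in the same gene families were mostly near background. Of the 13 measured, 3 read above it on all arrays and 0 were called. Osr2, the paralogue of Osr1, differed in pattern from it. It read 6.25, 7.33 and 7.15 across wild type, 8.47, 9.18 and 7.71 across Foxn1 mutants and 7.68, 6.76 and 6.30 across Tbx1 mutants, so that the Foxn1 mutants lay above both other groups (1.54 ± 0.47 against each, unadjusted p = 0.0128 in limma's F test, adjusted p = 1.00). Of all clusters 4.86% and 5% lie above wild type and above the Tbx1 mutants in this way, and in the 7 arrays Osr2 differed by 0.84 ± 0.44 and 1.17 ± 0.40. Meox2 lay between 3.28 and 5.51 and Hand1 between 2.83 and 5.86, with Hand1 above background on wild type replicate 1 alone. The E-protein partners and ID inhibitors of basic helix-loop-helix factors numbered 7, again with 0 called. Tcf12, an E-protein, read 12.26 to 12.85 across wild type, 12.95 to 13.08 across Foxn1 mutants and 12.60 to 12.85 across Tbx1 mutants, so the Foxn1 mutants lay above the rest without overlap (0.46 ± 0.21 against wild type and 0.29 ± 0.21 against the Tbx1 mutants, or 0.30 ± 0.22 and 0.28 ± 0.20 in the 7 arrays). Id1 and Id3, inhibitors that sequester E-proteins, were highest on Foxn1 mutant replicate 2, at 12.52 and 11.10, against 10.30 to 10.95 and 8.52 to 9.69 elsewhere.

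Among 21 measured genes of pharyngeal mesenchyme, 12 read higher in the Foxn1 mutants and 10 in the Tbx1 mutants than in wild type, with medians of 0.29 and -0.01, and 0 were called. In the 7 arrays these were 9 and 13 of 21, with medians of -0.03 and 0.14. Arrays did not overlap wild type for 4 of 21 genes in the Foxn1 mutants, all higher (4.86% of all clusters), and for 3 higher (5.18%) and 3 lower (4.27%) in the Tbx1 mutants. Tbx18, a T-box gene of mesenchyme and mesothelial layers, read 5.38, 5.30 and 5.95 across wild type, 7.14, 7.16 and 6.44 across Foxn1 mutants and 6.66, 6.56 and 7.17 across Tbx1 mutants. Tbx18, the gene of lowest F-test p among the 21, is among those with no overlap in either mutant, and its limma adjusted p was 1.00 and 0.723. In the 7 arrays it differed by 1.17 ± 0.35 and 1.17 ± 0.32. Nr2f1, a nuclear receptor of crest-derived mesenchyme, read 11.86, 11.95 and 12.25 in the Tbx1 mutants, above the 9.84 to 11.25 of wild type (1.39 ± 0.44, or 1.48 ± 0.37 in the 7 arrays), and 10.70 to 12.07 in the Foxn1 mutants, which overlapped both. Msx2 was under background on all 9 arrays. Of the markers of migrating crest and glia, Foxd3 was under background on all arrays. Ngfr, a neurotrophin receptor, read 12.74, 11.17 and 11.69 across wild type, 10.61, 11.32 and 11.58 across Foxn1 mutants and 10.37, 9.85 and 8.79 across Tbx1 mutants, and was lower in the Tbx1 mutants than in wild type without overlap (-2.20 ± 0.49, or -1.76 ± 0.47 in the 7 arrays, limma adjusted p = 0.639 and 0.403). Erbb3, a neuregulin receptor of glia, was also lower there without overlap (-1.06 ± 0.44, or -0.97 ± 0.44 in the 7 arrays). Sox10 ranged from 4.02 to 7.57 with overlap.

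Factors through which mesenchyme acts on thymic epithelium showed 0 calls among 9 genes. Aldh1a2, which makes retinoic acid, read 8.09, 7.37 and 8.03 across wild type, 7.95, 9.37 and 8.26 across Foxn1 mutants and 8.17, 8.78 and 10.01 across Tbx1 mutants. Cxcl12, a chemokine for progenitors, read 7.43 to 8.82 across wild type, 8.07 to 9.27 across Foxn1 mutants and 8.65 to 9.95 across Tbx1 mutants. Wnt5a read 4.42 to 5.96 over all arrays. With all 9 arrays the genotypes overlapped in these named genes, apart from Aldh1a2 in the Tbx1 mutants. There it was separated from wild type by less than 0.1 log2 units. Tbx1 mutants differed from wild type by 1.15 ± 0.50 (Aldh1a2), 1.14 ± 0.46 (Cxcl12) and -0.66 ± 0.37 (Wnt5a). In the 7 arrays these were 1.28 ± 0.48, 1.21 ± 0.47 and -0.37 ± 0.34. Of the 9 genes, 0 lay wholly above (4.86% of all clusters) or below (3.43%) wild type in the Foxn1 mutants. In the Tbx1 mutants 2 lay above (5.18%) and 1 below (4.27%).

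Of the 10 matrix genes made by such fibroblasts, 9 read higher in each mutant than in wild type, with medians of 0.86 and 0.82, and again 0 were called. In the 7 arrays it was again 9 of 10 in each, with medians of 0.54 and 0.86 and 0 called. Without overlap were 5 of 10 in the Foxn1 mutants (4.86% of all clusters) and 7 of 10 in the Tbx1 mutants (5.18%), all higher. Dcn, the proteoglycan decorin, read 14.61, 14.48 and 14.69 across wild type, 15.80, 16.71 and 15.87 across Foxn1 mutants and 16.37, 15.92 and 16.17 across Tbx1 mutants (limma adjusted p = 1.00 and 0.213, or 0.870 and 0.0881 in the 7 arrays). Arrays of both mutants lay above all wild type arrays also for Col3a1 (10.53 to 11.11 in wild type, 11.53 to 12.53 and 11.66 to 11.93 in the mutants), and in the Tbx1 mutants for Col1a1 (12.60 to 13.36 against 11.09 to 11.96). The mean of the list was 9.76 to 9.85 across wild type, 10.21 to 11.26 across Foxn1 mutants and 10.26 to 11.00 across Tbx1 mutants. For the 9 members the same mean was 6.89 to 7.60, 7.36 to 8.44 and 7.34 to 7.76, with overlap. Both mutants were set against the same wild type arrays.

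**Figure D4:**
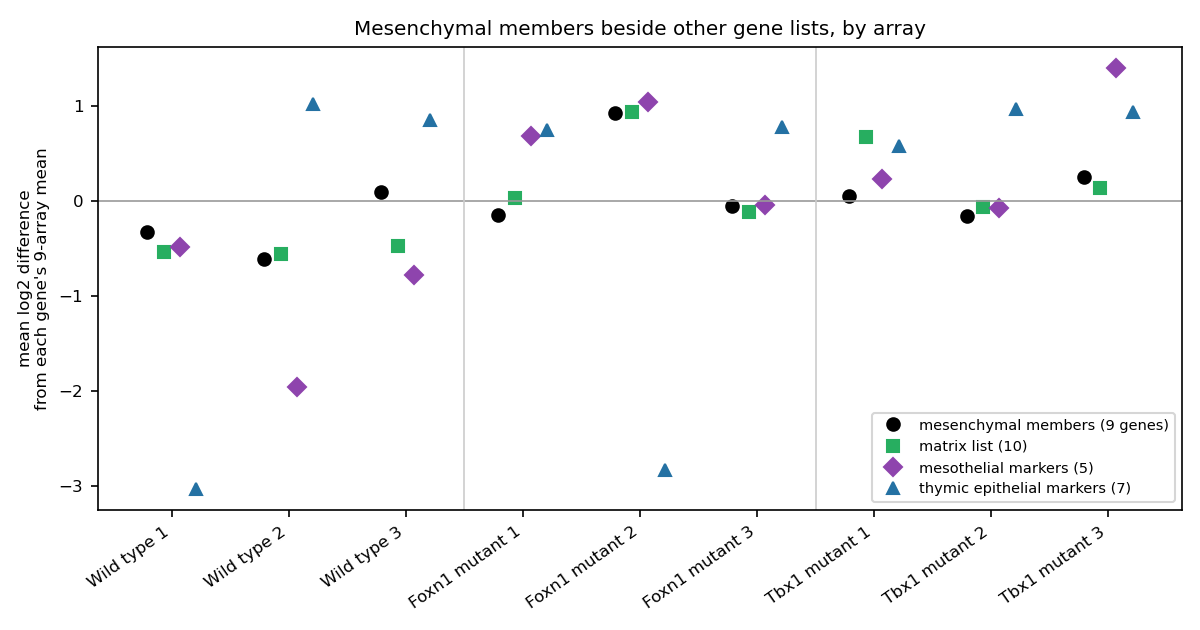
Mean log2 difference from each gene's 9-array average (y axis) on each array (x axis) for the 9 members, 10 matrix genes, 5 mesothelial markers and 7 thymic epithelial markers. The matrix and mesothelial means lie lower on the 3 wild type arrays than on the 6 mutant arrays, the members do not separate in this way, and the thymic epithelial markers fall to -3.03 and -2.84 on the 2 arrays without thymic genes (wild type replicate 1, Foxn1 mutant replicate 2).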

How the data were processed

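Total RNA of embryonic thymic lobes was amplified, converted to single-stranded cDNA, biotin-labelled and hybridised to Clariom S arrays, per the labels. The deposited log2 values were used as given (1.47 to 19.92). How they were summarized and normalized, and on which genome build, is not given in the labels or file used. Of 28846 features, 6640 controls were left out, leaving 22206 clusters, 19572 of them with a single symbol in the platform annotation.

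limma 3.58.1 in R 4.3.3 fitted a term per genotype to all 9 arrays with empirical Bayes moderation. Tests were two-sided and adjusted by Benjamini and Hochberg over all clusters, threshold 0.05. The fit was tested on simulated data. The members, gene lists and alternatives were chosen with earlier results of these data known. Named genes were the members, the 3 genes of lowest F-test p in each related list and the 5 clusters most correlated with the members' mean. Others (Pdgfa, Prss16, Abcc9, Rgs5, Upk3b, Sox10, Ngfr, Erbb3, Foxd3 and single thymic epithelial, heart muscle and mesothelial markers) were chosen after their values were seen. The sample titles carry 3 date codes (A, B and C) of unstated meaning, with no Foxn1 mutant array in C and no Tbx1 mutant array in B.

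Alternatives were a filter on clusters whose mean was under 3.44, median centring, quantile normalization, a floor at the negative-control median, an intensity trend with robust moderation, the date code as a fixed or random block, only the arrays compared, a threshold of 0.1, and leaving out each array or the 2 that stand apart (for related genes and lists, chosen after seeing the data). Every measured member had a single cluster, so averaging clusters could not alter a value. Figures used matplotlib 3.10.9.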

Additional observations from a re-analysis of the deposited data

How the results depend on the processing

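No member was called under any of the 18 alternative fits (lowest adjusted p = 0.408 from limma), and of 480 member differences refitted 452 kept their direction. Those that turned, outside single arrays left out, were as follows. With the floor at the negative-control median, Twist2 and Foxd1 both became -0.085 for Foxn1 mutants against wild type and Foxd1 -0.11 against Tbx1 mutants, since every value of these genes was then the floor itself. With the date code as a fixed block, Pdgfrb was -0.20 (Foxn1 mutants against wild type), Foxd1 -0.060 (Tbx1 mutants against wild type), and Twist2 0.39 and Alx1 0.43 (Foxn1 against Tbx1 mutants), and the members' median between the mutants was 0.82. Only code A holds arrays of both mutants, Foxn1 mutant replicate 2 and Tbx1 mutant replicate 1, and the members' median between those was 1.26. The block therefore does not free the comparison of the mutants from the array that stands apart. Without wild type replicate 1 and Foxn1 mutant replicate 2, Pdgfrb and Prrx1 were -0.38 and -0.38 for Foxn1 mutants against wild type, Meox1 was 0.13 for Tbx1 mutants against wild type, and Twist1, Osr1, Tcf21 and Meox1 were -0.24, -0.13, -0.14 and -0.12 between the mutants. The cause was not tested beyond the floor. Counts over all clusters moved as well. Between Foxn1 mutants and wild type 1 cluster was called with only the arrays compared, between Tbx1 mutants and wild type 0 with only those arrays, 1 with the fixed block and 2 without the 2 arrays, between the mutants 2 with the floor, with only those arrays, without the 2 arrays or at a threshold of 0.1, and in the F test 1 with the fixed block. With any 1 array left out, the members' median lay between 0.28 and 0.80 (Foxn1 mutants against wild type), 0.11 and 0.54 (Tbx1 mutants against wild type) and -0.14 and 0.58 (between the mutants). The members that turned ranged as follows. Against wild type in the Foxn1 mutants, Pdgfrb ranged from -0.49 (without wild type replicate 1) to 0.84, Prrx1 from -0.43 to 0.58 and Meox1 from -0.23 to 0.64, the lowest values of both without Foxn1 mutant replicate 2. Against wild type in the Tbx1 mutants, Foxd1 ranged from -0.13 to 0.19, Osr1 from -0.11 to 0.83 and Meox1 from -0.36 to 0.15. Between the mutants, Twist1 ranged from -0.24 to 0.58, Twist2 from -0.39 to 0.16, Osr1 from -0.13 to 0.83, Tcf21 from -0.14 to 0.73, Meox1 from -0.12 to 0.75 (all lowest without Foxn1 mutant replicate 2) and Alx1 from -0.58 to 0.10. Clusters called ranged from 0 to 3 (Foxn1 mutants against wild type, 3 without Tbx1 mutant replicate 1), 0 to 20 (Tbx1 mutants against wild type, 20 without wild type replicate 2), 0 to 3 (between the mutants, 3 without wild type replicate 1) and 0 to 3 (F test, 3 without wild type replicate 2). Twist2 and Foxd1 were not above background on any array, which limits what their values show.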
